A study of Mus musculus with 2 samples.

Results

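Cyclin-dependent kinase (CDK) inhibitors of the INK4 and KIP families were examined in mouse hybridoma cells exposed to the bursal peptide BSP-II. Of the 7 genes listed for this group (Cdkn1b, Cdkn1c, Cdkn2a, Cdkn2b, Cdkn2c, Cdkn2d and Cdkn3), 6 had a probe, matched by RefSeq accession, among the 17302 genes that could be named on the arrays. They were read by 7 probes and 25 spots, out of 41163 gene probes. No probe was matched to Cdkn3, so it has no value here. The genes were chosen by name, with the measured differences between these 2 arrays already known, so the values below are a description and carry no test.

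The cells were hybridoma cells of the strain labelled 1H5F9. A hybridoma descends from the fusion of a myeloma cell and an antibody-making B cell, and it secretes 1 antibody. Both groups were kept in RPMI 1640 medium with fetal bovine serum. The treated culture received BSP-II at 5 µg/ml and the untreated culture 0 µg/ml, each for 4 h. There was 1 array per dose, and both lay on 1 slide, so no difference has a replicate check. The design text mentions a pair of independent experiments, while both arrays used here carry replicate number 1. In RNA from a whole culture, fewer cells that express a gene and less of its RNA per cell cannot be told apart.

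CDK inhibitors hold back the kinases that drive a cell through its cycle. INK4 proteins bind Cdk4 and Cdk6 and keep D-type cyclins from activating them, which leaves the retinoblastoma protein able to hold E2F transcription factors in check. KIP proteins bind complexes of a cyclin and a kinase, mainly those of Cdk2. Cdkn2a is unusual in that it encodes a pair of proteins from different first exons: the INK4 protein p16Ink4a and, in another reading frame, p19Arf, which binds Mdm2 and thereby frees p53. Cdkn3 is a phosphatase that removes a phosphate from Cdk2 and belongs to neither family.

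Cdkn2a stood apart from the other members, with a signal 1.78-fold lower on the BSP-II array. The other 5 genes with a measured probe differed by 1.01-fold to 1.12-fold. Signals are Agilent's processed spot brightness, from which background was subtracted, and they were divided by the 75th percentile of their array (309 on the untreated and 356 on the BSP-II array) before differences were taken. All differences are log2 values of BSP-II minus untreated.

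The transcription starts of the chromosome 4 locus are shown because 2 of its genes, Cdkn2a and Cdkn2b, differed unlike each other. Each line gives the 250 bases before a start, from RefSeq on GRCm38.p6, minus strand, 5′ to 3′. The RefSeq table held 8 starts for 6 of the 7 genes and none for Cdkn1c. The windows shown are chr4:89294620-89294869 for the upstream start of Cdkn2a, known to give the Arf transcript, chr4:89282193-89282442 for its downstream start, known to give the p16Ink4a transcript, and chr4:89311033-89311282 for Cdkn2b. Capitals mark matches, on either strand, to the E2F motifs TTTCCCGC and TTTGGCGC and to the GC box GGGCGG.
Cdkn2a upstream start: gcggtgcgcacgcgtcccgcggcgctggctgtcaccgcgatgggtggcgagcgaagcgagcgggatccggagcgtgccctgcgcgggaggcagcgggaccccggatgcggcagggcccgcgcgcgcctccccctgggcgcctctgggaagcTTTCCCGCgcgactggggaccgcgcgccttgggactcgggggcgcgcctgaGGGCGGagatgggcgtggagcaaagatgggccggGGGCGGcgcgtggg
Cdkn2a downstream start: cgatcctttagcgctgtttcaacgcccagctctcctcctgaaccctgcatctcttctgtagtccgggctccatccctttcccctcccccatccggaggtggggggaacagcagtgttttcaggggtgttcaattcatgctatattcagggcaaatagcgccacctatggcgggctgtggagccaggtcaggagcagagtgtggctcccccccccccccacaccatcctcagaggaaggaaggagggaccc
Cdkn2b start: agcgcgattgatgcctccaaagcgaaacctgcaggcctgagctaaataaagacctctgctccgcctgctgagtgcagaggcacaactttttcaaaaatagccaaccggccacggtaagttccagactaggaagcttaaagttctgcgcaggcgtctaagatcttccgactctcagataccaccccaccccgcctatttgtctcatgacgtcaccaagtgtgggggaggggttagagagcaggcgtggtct

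The Cdkn2a starts lie 12427 bases apart, and that of Cdkn2b lies 16413 bases from the upstream one. The upstream Cdkn2a window held 1 match to TTTCCCGC, which began 99 bases before the start, and 2 GC boxes. No matched bases were shared between motifs. The letters TTTCCCGC were found in 0.895% of the 32851 windows of this length in the RefSeq table, TTTGGCGC in 0.417% and GGGCGG in 32.7%. Neither of the other windows shown held any of these letters. Among the member windows not shown, GC boxes lay upstream of Cdkn2d (3), Cdkn1b (1), Cdkn3 (1) and the upstream Cdkn2c start (3). None of those windows held either E2F motif. GC boxes were thus not particular to Cdkn2a. GC content was 78.4% upstream of the Arf start, 60.0% upstream of the p16Ink4a start and 53.6% upstream of Cdkn2b, against a median of 52.4% in the table. Before the upstream Cdkn2c start it was 77.2%. A match is a description of the letters and not a binding site.

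Among the INK4 genes, the Cdkn2a probe (A_51_P144813, listed under NM_009877, an accession known for the Arf transcript) was printed at 10 spots of each array. No other probe was matched to Cdkn2a, so its difference could not be compared between probes. The p16Ink4a and Arf transcripts share later exons, and the files hold no probe sequence, so which of them the probe reads was not determined. Untreated, the processed signals of its spots ran from 586 to 663 with a median of 629. With BSP-II they ran from 388 to 440 with a median of 407. Every one of the 10 spots was lower on the BSP-II array, and the ranges did not overlap, either as processed signals or after scaling.

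After scaling, the Cdkn2a spots lay between 1.89 and 2.14 times the 75th percentile of the untreated array and between 1.09 and 1.23 times that of the BSP-II array. The mean log2 difference was −0.83 ± 0.06 (SD over 10 spots), and single spots ranged from −0.94 to −0.73. Repeat spots share 1 RNA sample, so this SD covers the spread within an array and not that between cultures. Agilent's own error of each spot, carried to a log2 difference, was 0.20. All 10 spots were well above background on both arrays, at 14.7 and 12.3 times the local background.

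**Figure D1:**
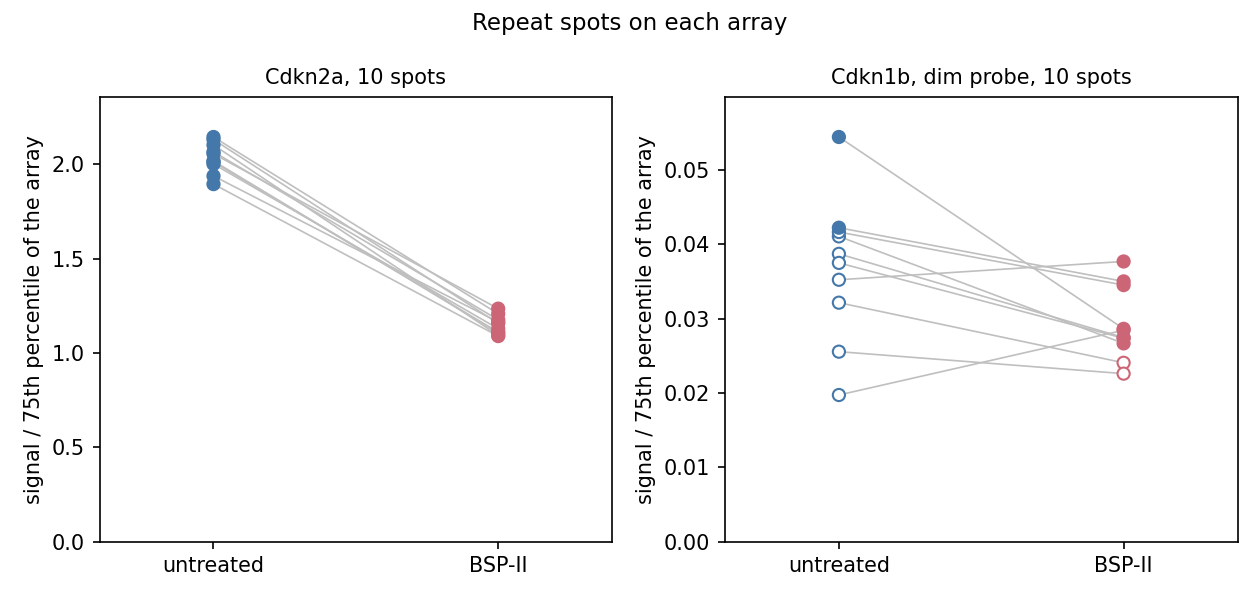
Signals of repeat spots, divided by the 75th percentile of their array (y axis), on the untreated and the BSP-II array; lines join the same spot position, and open circles are spots not well above background. The 10 Cdkn2a spots (left) lie between 1.89 and 2.14 untreated and between 1.09 and 1.23 with BSP-II, without overlap, while those of the dim Cdkn1b probe (right) overlap.

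The 10 Cdkn2a spots were scattered over the array. Spots well above background within 10 rows and columns of them had median differences from −0.10 to 0.00, so the surroundings differed far less than the gene. With those local medians subtracted, Cdkn2a was at −0.78.

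Cdkn2b, the neighbour of Cdkn2a, encodes p15Ink4b, an INK4 protein known to respond to TGF-beta. Its 1 spot read 1251 untreated and 1521 with BSP-II. After scaling these are 4.05 and 4.27 times the 75th percentile, a log2 difference of 0.08. The gap between Cdkn2b and Cdkn2a was 0.90. Mtap, which lies on the other side of Cdkn2a and encodes an enzyme of methionine salvage, was at −0.14, with signals of 1066 and 1117. Of the 5 chromosome neighbours listed, only Mtap and Elavl2, an RNA-binding protein gene (−0.10 at signals of 37.7 and 40.4), were well above background on both arrays.

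Cdkn2c encodes p18Ink4c, which is known to support the exit of plasma cells from the cell cycle. Its spot read 594 and 694, and the log2 difference was 0.02. Cdkn2d encodes p19Ink4d, a protein distinct from p19Arf. Its spot read 118 and 139, and the difference was 0.03. The scaled levels of both genes were nearly alike on the 2 arrays, at 1.92 and 1.95 for Cdkn2c and 0.382 and 0.391 for Cdkn2d.

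Of the KIP genes, Cdkn1b encodes p27Kip1, whose level is largely set by its breakdown after the Skp2 ubiquitin ligase marks it. Its probe A_51_P146126 read 1370 untreated and 1414 with BSP-II. After scaling, the level was 4.43 and 3.97, a log2 difference of −0.16. After this scaling, Cdkn1b was the only member besides Cdkn2a that was lower on the BSP-II array. Before scaling, its signal was not lower there.

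The other Cdkn1b probe, A_51_P169173, was printed at 10 spots but was dim. Its spots ran from 6.10 to 16.8 on the untreated array, where 2 of 10 were well above background, and from 8.05 to 13.4 on the BSP-II array, where 7 of 10 were. The ranges overlapped, and spot differences ran from −0.93 to 0.53. The probe was not well above background on the untreated array by the rule used here, which asks for most of the spots, and the lowest signals called well above background were 11.8 and 7.66. It gives no fold.

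Cdkn1c encodes p57Kip2, an imprinted gene. Its spot read 73.1 and 87.2, with scaled levels of 0.236 and 0.245 and a log2 difference of 0.05. Each of the 5 members with 1 measured spot differed by less than the error Agilent gave for it, which was 0.20 to 0.21. That does not show that they were unchanged. For 3192 genes with 2 detected probes, the gap between the probes' differences had a median of 0.13 and a 90th percentile of 0.50, so a difference of the size of that of Cdkn1b is within what probes of 1 gene show on these arrays.

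**Figure D2:**
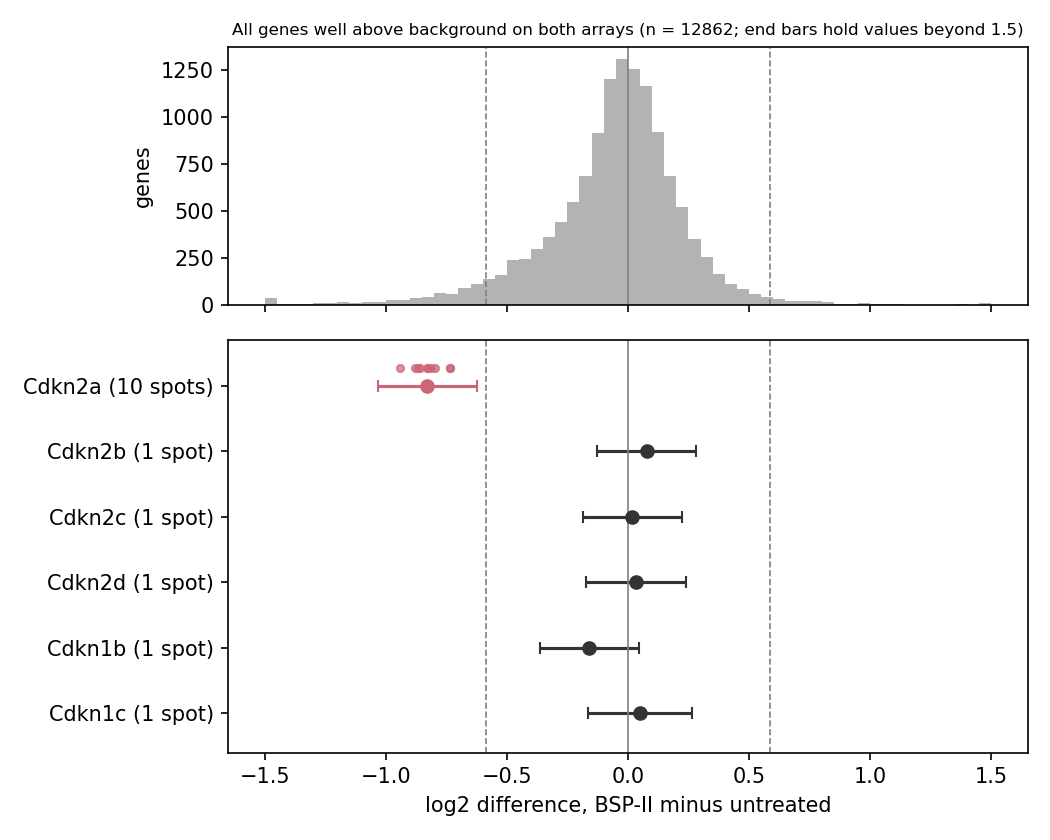
Log2 differences (BSP-II minus untreated, x axis) of all 12862 genes well above background on both arrays (top, number of genes per bin) and of the 6 measured inhibitors (bottom); large points are means over spots, bars are Agilent's own error carried to a log2 difference, small points are the 10 Cdkn2a spots, and dashed lines mark 1.5-fold. Cdkn2a lies at −0.83, and the other members lie between −0.16 and 0.08.

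The median difference of the 6 measured members was 0.02, against −0.03 for the 12862 genes that were well above background on both arrays, and 4 of 6 members lay above that median, as do 50% of all genes by definition. At least 1.5-fold different was 1 member of 6, and of all genes it was 6.05% in either direction. Taken by direction, 4.84% of genes were at least 1.5-fold lower and 1.21% at least 1.5-fold higher. Of the called genes 20.1% were higher, a share that became 44.6% with median scaling. Cdkn2a was the only member past that size, and it held rank 244 from the lowest of all 12862 genes, so 1.89% of genes were lower still. Most of those lay below the median level. Among the 6431 genes at or above the median level, which include 4 members, Cdkn2a was again the only member past 1.5-fold and held rank 20. Of these brighter genes 0.98% were at least 1.5-fold lower and 0.28% higher, 1.26% either way. At 2-fold no member was called, against 1.21% of all genes (1% lower and 0.202% higher) and 0.171% of the brighter genes (0.155% lower and 0.0155% higher).

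The spread over spots can be set beside that of other probes printed repeatedly. There were 157 probes of 5 or more spots that were well above background on both arrays, and their median SD over spots was 0.07. The BSP-II range lay wholly below the untreated range in 18 of them (11.5%) and wholly above it in 13 (8.28%). That split depends on the scaling: with each array scaled to its median it was 6 below and 31 above. The Cdkn2a ranges stayed apart in all 6 alternatives computed on spots. A gap between the ranges is thus not rare on these arrays. A mean difference of at least 1.5-fold was less common: 5 of the 157 probes had one, 4 of them lower, Cdkn2a included. Cdkn2a had the third lowest difference.

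The 3 named repeat probes nearest to Cdkn2a in their difference were Fgf8 at −0.85 ± 0.33 (SD over 8 spots), Lhx1 at −0.71 ± 0.24 (10 spots) and Mapk8 at −1.01 ± 0.16 (9 spots). Their mean signals, untreated and with BSP-II, were 29.1 and 18.6 for the growth factor gene Fgf8, 63.5 and 44.9 for the transcription factor gene Lhx1, and 27.4 and 15.7 for the kinase gene Mapk8. The measure of likeness was the difference between 2 arrays alone, so it carries no information on shared behaviour. Cdkn1a, the CIP member of the KIP family and a target of p53, was read by 8 unflagged spots and was at 0.17 ± 0.02 (SD). Its signals ran from 769 to 837 on the untreated array and from 1023 to 1097 on the BSP-II array. The scaled ranges did not overlap, but the mean difference was smaller than Agilent's error for these spots, 0.20.

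**Figure D3:**
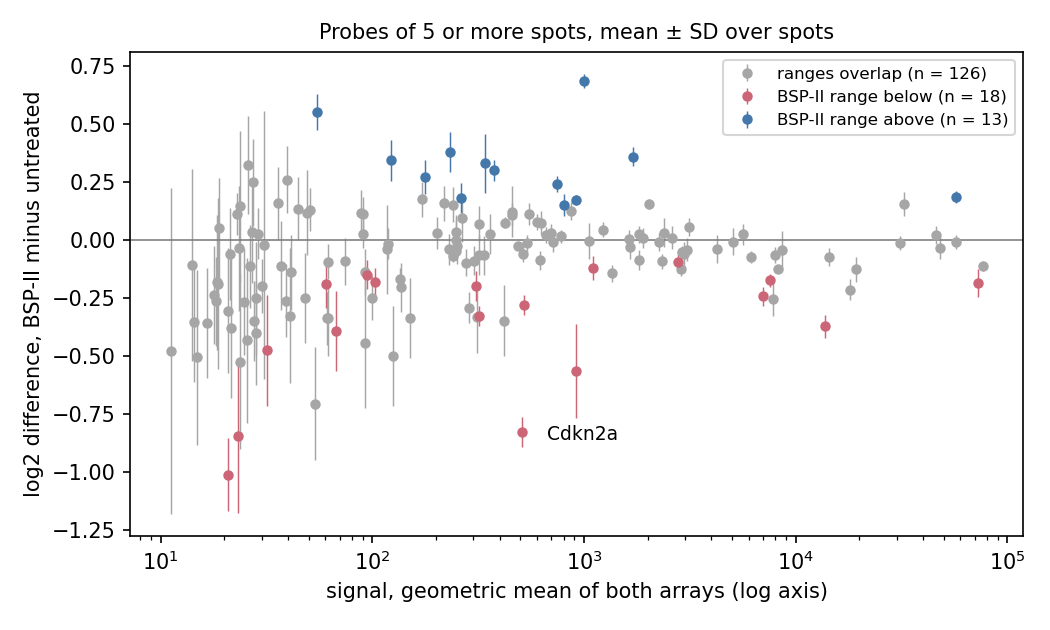
Log2 difference (mean ± SD over spots, y axis) against signal (geometric mean of both arrays, log x axis) for the 157 probes of 5 or more spots; colours show whether the spot ranges of the 2 arrays overlap. Cdkn2a, at −0.83 ± 0.06, has the third lowest difference; the probes below it, Fgf8 and Mapk8, lie at the low end of the signal axis.

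The list of kinases and cyclins, which also holds the subunits of the CDK-activating kinase, had a median slightly below that of all genes. Of 14 listed genes 12 were measured, 3 lay above the all-gene median, none was 1.5-fold different by its brightest probe, and the list's median was −0.14. Relative to all genes it was −0.11, and between −0.15 and −0.06 in the alternatives. Among the direct targets of INK4 proteins, Cdk4 was at −0.07 (4491 and 4942), and Cdk6 was not well above background on both arrays, at 11.3 and 7.40. The D-type cyclins went both ways. Ccnd2 was at −0.30, with −0.61 and −0.24 at its other probes, and Ccnd3 was at 0.22. No probe was matched to Ccnd1.

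Among the targets of KIP proteins, Cdk2 was at −0.16. Of its cyclin partners, Ccne1 was at −0.26 (other probe −0.36), Ccne2 at −0.28 (other probe −0.27) and Ccna2 at −0.26. The mitotic kinase Cdk1 was at −0.09 and its cyclin Ccnb1 at −0.34 (other probes −0.31 and −0.35). The subunits of the CDK-activating kinase were at −0.11 (Cdk7, other probe −0.28), −0.01 (Ccnh, other probes −0.16 and 0.05) and 0.14 (Mnat1).

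Downstream of the INK4 route, the 13 pocket protein and E2F genes had a median of −0.12, with 5 above the all-gene median and none at least 1.5-fold different by its brightest probe. The other Tfdp2 probe was at 0.66, against 0.04 for the brightest. Relative to all genes the list's median was −0.10, and it became −0.05 without background subtraction and −0.05 with the median over probes of a gene. E2f2, an activating E2F, was lowest at −0.57, with signals of 2501 and 1945. E2f4, a repressive E2F, was at −0.50 but near background, at 14.0 and 11.4. The atypical E2f8 was at −0.27 and the pocket protein gene Rbl1 at −0.25.

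On the route by which Arf acts on p53, 9 of 9 listed genes were measured, with a median of −0.13 and 2 above the all-gene median. Relative to all genes that is −0.10, which became −0.02 with the median over probes of a gene. Mdm2, the ubiquitin ligase that Arf binds, was at −0.13 ± 0.05 (SD over 10 spots), and its other probe was at −0.19. Trp53 was at −0.13 (other probe 0.02), and Mdm4, a relative of Mdm2, at −0.20 (other probe 0.31). The other Arf-binding proteins Npm1 and Ubtf were at −0.20 (other probe −0.13) and −0.18 (other probe −0.08). Ttf1, a terminator of ribosomal RNA transcription that Arf also binds, was at −0.75, from 1810 to 1243, but its other probe gave −0.25.

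Dmtf1, an activator of the Arf promoter, was at −0.06 (other probe −0.04). The ubiquitin ligases that turn Arf over or are held by it were at 0.15 (Trip12, other probe 0.01) and 0.02 (Huwe1). The other Huwe1 probes ranged from −0.37 to 3.73, so its probes disagree.

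Of the 8 genes listed around the breakdown of p27Kip1, 7 were measured. The list's median was −0.02, 4 lay above the all-gene median, and none was 1.5-fold different. Cks1b, the cofactor with which Skp2 recognises p27Kip1, was lowest at −0.26, with signals of 13045 and 12592. The ligase subunits were at −0.08 (Cul1, other probes −0.06 and 0.17), −0.02 (Rbx1, other probes 0.01 and −0.05) and 0.06 (Skp1). The ubiquitin-conjugating enzyme Cdc34 was at 0.10, Fbxw7 at −0.06 (other probe −0.18) and Fzr1, which directs Skp2 to destruction, at 0.10 (other probe 0.14). No probe was matched to Skp2.

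**Figure D4:**
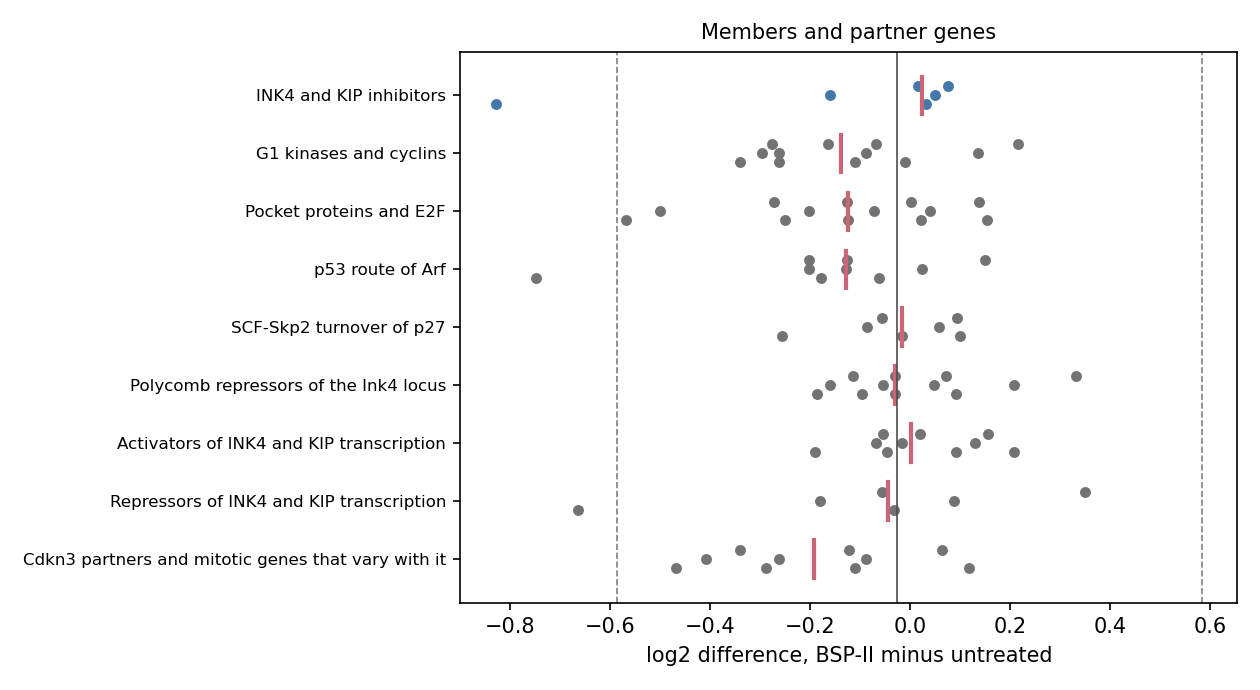
Log2 difference (BSP-II minus untreated, x axis) of each measured gene in the inhibitor group (top row) and in 8 lists of partner genes; red bars are list medians, the thin line is the all-gene median of −0.03, and dashed lines mark 1.5-fold. Cdkn2a at −0.83 and Ttf1 at −0.75 lie farthest out, and the medians run from −0.19 to 0.02.

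Regulators of INK4 and KIP transcription were close to the all-gene median. The 12 measured Polycomb genes, which repress the Ink4 locus, had a median of −0.03 with 5 above the all-gene median. Their largest differences were those of Pcgf2 at 0.33 (dim, 31.0 and 45.0), Cbx7 at 0.21, Phc1 at −0.19 (other probes 0.23 and 0.43) and Ezh2 at −0.16. The 10 measured activators had a median of 0.00 with 6 above, led by Smad3 at 0.21 (other probe 0.19), Foxo4 at −0.19, Men1 at 0.16 and Zbtb17, which encodes Miz1, at 0.13.

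Of 9 other repressors 6 were measured, with a median of −0.04 and 2 above. Id2, an inhibitor of helix-loop-helix factors, was at −0.66 (other probe −0.36), from 987 to 718. Gfi1 was at 0.35 and dim, Kdm2b at −0.18 (other probes 1.59 and −0.14) and Zbtb7a at 0.09 (other probe −0.22). Among regulators, Id2 was the only one at least 1.5-fold different by its brightest probe.

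The mitotic genes listed in place of Cdkn3 had a median of −0.19, with 2 of 10 above the all-gene median and none 1.5-fold different. Ccnb2 was at −0.47, the anaphase activator Cdc20 at −0.41, Ccnb1 at −0.34 and the kinase gene Aurka at −0.29. The listed genes do not stand in for the missing Cdkn3 value.

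Markers of antibody-secreting and B cells were present: 12 of 13 were well above background on both arrays, among them Jchain, Sdc1 and Xbp1, and Pax5 was not. After scaling, their summed signal was 1243 times the 75th percentile untreated and 1135 with BSP-II. Most of it came from Jchain and Pou2af1, which read 150869 and 128531 untreated of a sum of 384266 before scaling. The list's median difference was −0.16, with 2 of 12 above the all-gene median and none 1.5-fold different. Of the T cell markers 5 of 7 were well above background, with scaled sums of 2.47 and 2.26 and a median of −0.27, and none was 1.5-fold different. Cd2 (0.10), Cd3e (−0.52) and Cd3g (−0.35) read 380, 209 and 135 untreated. Cd4 (−0.27) and Cd3d (0.58) were dim, at 25.3 and 13.7 untreated. Of the fibroblast markers 4 of 6 were well above background, with sums of 0.335 and 0.325 and a median of −0.15. Col3a1, whose signals were near the lowest called well above background, was at −0.78. For myeloid cells it was 4 of 7 markers, with sums of 0.487 and 0.558 and a median of −0.08. No probe was matched to the myeloid marker Cd68. Cd14 was at −0.69 (49.2 and 35.3) and Csf1r at 0.90 (48.4 and 104), but the other Csf1r probe gave −0.75. Cd8a, Lck, Lyz2, Itgam, Pdgfra and Dcn were not well above background on both arrays, so they have no difference. Their part in the Cdkn2a difference was not tested.

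The Cdkn2a difference kept its direction and stayed past 1.5-fold in each of 9 other ways of processing, between −0.71 and −0.83. All measured members, Cdkn2a included, moved with the scaling. With each array scaled to its median, every difference rises by 0.12, and Cdkn2b, Cdkn2c, Cdkn2d and Cdkn1c were then at 0.20, 0.14, 0.15 and 0.17 and Cdkn1b at −0.04. Without background subtraction Cdkn2d and Cdkn1c were at −0.01 and −0.07, and Cdkn2c, which was at −0.01 with normexp, also changed sign. The signs of Cdkn2c, Cdkn2d and Cdkn1c thus depend on the processing, while Cdkn2b stayed above 0 and Cdkn1b below 0 in all 9.

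**Figure D5:**
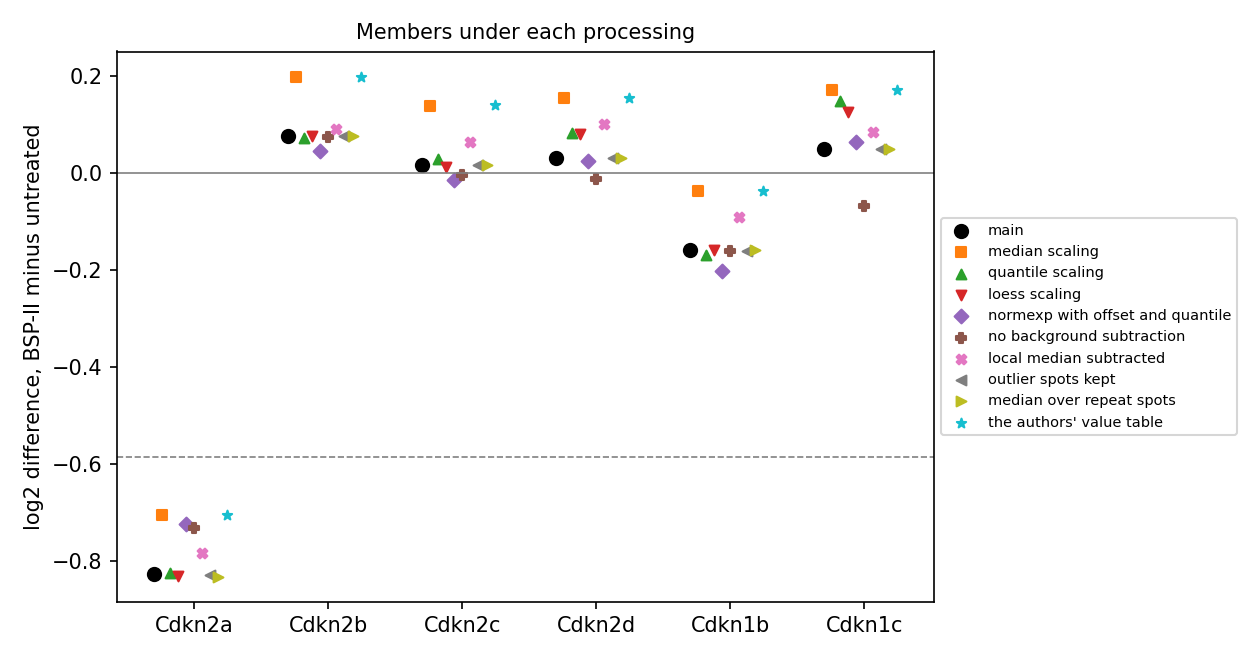
Log2 difference (BSP-II minus untreated, y axis) of each measured inhibitor under the main processing (black circles) and 9 others (coloured symbols); the dashed line marks 1.5-fold lower. Cdkn2a stays between −0.83 and −0.71, below the line, and the other genes lie between −0.20 and 0.20.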

How the data were processed

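RNA of 2 hybridoma cultures was labelled with Cy3 and hybridised to 1-colour Agilent arrays, 1 per dose. Per the file headers, the deposited intensity values are the processed signal (background-subtracted, with its error) and the raw median brightness of spot and local background, and the deposited flags (0 or 1) mark saturated spots, outlier spots and spots above background. Agilent Feature Extraction 10.5.1.1 was used, per the submitters' processing notes. The authors' deposited value table is on a log2 scale. For 99.4% of its 23296 probes, adding a fixed amount to each array's log2 processed signal (−4.85 untreated, −4.94 with BSP-II) gives the table's value within 0.001. Its column medians are 2.88 and 2.99, and how the constants were chosen is unknown.

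Probes were named through RefSeq accessions (GRCm38.p6, for names and promoter windows; the arrays' grid is on mm9); 61.0% of probes matched. Control spots and 189 flagged spots were left out, repeat spots were averaged on the log2 scale, and each gene was represented by its brightest probe that was well above background on both arrays, meaning in most of its spots. No gene spot was saturated. With 1 array per dose there is no test, and the number of arrays limits the precision. Members and partner lists were chosen with earlier results of these data known. Named genes are all members, every measured gene of the lists of kinases and cyclins, Arf route and p27 turnover, the 4 largest differences of the other lists, and the 3 nearest repeat probes. Alternatives were other scalings, background corrections, filters, probe rules, the value table and a 2-fold threshold. The steps were tested on simulated data with the same noise at every signal level. That does not cover the larger scatter of dim probes, so it does not give the rate of false calls on these arrays. Python 3.11.15, numpy 2.4.6, pandas 2.3.3, statsmodels 0.14.6 and limma 3.58.1 were used.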

Additional observations from a re-analysis of the deposited data

How the results depend on the processing

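With 1 array per dose, what these values cannot show is the spread between cultures, labellings and hybridisations. Signal over background limits the dim probes: the lowest signals well above background were 11.8 (untreated) and 7.66 (BSP-II). No paired analysis was possible because the groups share only 1 replicate number. The differences of Cdkn1b, Cdkn1c, Cdkn2b, Cdkn2c and Cdkn2d moved by less than Agilent's error in all 9 alternatives. Cdkn2a was judged by its SD over spots (0.06), a smaller measure than Agilent's error for its spots (0.20). It moved by more than that SD in 4 of 9. The values were −0.71 with median scaling, −0.71 in the authors' value table, −0.72 with normexp and −0.73 without background subtraction. By Agilent's error Cdkn2a did not move in any of the 9. The gap between its spot ranges, 0.62 on the log2 scale, became 0.50, 0.53 and 0.53 with median scaling, with normexp and without background subtraction. The count of members past the threshold was 1 in 12 of 13 alternatives and 0 at 2-fold.

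For all genes, 778 at 1.5-fold became 127 with normexp, 200 without background subtraction, 3405 when dim probes were kept, 1576 with the positive and significant filter and 155 at 2-fold. The share of these that were higher was 20.1%, against 44.6% with median, 34.6% with quantile and 33.2% with loess scaling, and 54.6% in the value table. Relative to all genes, the median of the Skp2 list went from 0.010 to 0.060 without background subtraction. That of the Polycomb list went from 0.00 to 0.053 with the median over probes. That of the activators went from 0.028 to 0.074 with local medians subtracted, 0.072 with no filter and 0.084 with the positive and significant filter. The median of the p53 route went from −0.10 to −0.02 with the median over probes, and that of the pocket protein and E2F list from −0.10 to −0.05 both there and without background subtraction. The cause was not tested.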
